A study of Mus musculus with 13 samples.

Results

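Late IL-10 was compared with continuous IL-10 during LPS stimulation of mouse bone marrow-derived macrophages, by H3K27ac, a histone acetylation read here by chromatin immunoprecipitation and sequencing. The comparison took 6 of the 12 libraries that have values, 3 late and 3 continuous, with equal replicate numbers paired as macrophage pools, and it took all 40691 consensus regions of the series. Of these, 36621 passed a filter on low values and were tested. Macrophages of the late IL-10 group received LPS, a bacterial cell wall component, at 1 ng/mL for 195 min and IL-10 only in the final 30 min. Those of the continuous IL-10 group received the same LPS with IL-10 from the start, for all 195 min. The labels give an IL-10 concentration of 1 ng/mL and do not repeat it for the late schedule. LPS alone for 195 min and no treatment, with 3 libraries each, entered the same fit and serve as context. All 4 groups came from IL10-/-RAG2-/- animals of strain 129S6/SvEvTac and were cultured for 5 days in medium conditioned with M-CSF, the growth factor of macrophages. The macrophages thus could not make IL-10 themselves, none came from an animal with intact Il10, and neither age nor sex is stated.

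IL-10 is an anti-inflammatory cytokine that binds a receptor on macrophages and activates the transcription factor STAT3, which induces genes such as Socs3, Bcl3 and Nfil3 and limits the response to LPS. LPS acts through a Toll-like receptor, NF-kB and AP-1 to switch on cytokine genes, and through interferon beta to switch on antiviral genes. H3K27ac is placed by the acetyltransferases CBP and p300 at active promoters and enhancers, and is used as a mark of active regulatory regions.

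The deposited values are reads times 1 scaling factor per library, and no value lies below 1 read. The 6 libraries held between 5926251 and 11083204 reads in regions, and a region at 1 read is not shown to be free of the mark. Values below are this signal, per region or summed over the regions of a gene, where a gene takes the regions that overlap it or that lie nearest to it within 100 kb. The third pool stood apart most clearly in the late IL-10 and LPS groups. Its library was also the deepest in each of the 4 groups, so 1 read had the lowest value there. That value was 0.886 in late library 3, against 1.76 and 1.79 in late libraries 1 and 2. The part of depth in this separation was not tested. Over regions, the log2 values of late library 3 correlated with those of late libraries 1 and 2 at r = 0.793 and 0.791, against 0.894 between those 2 libraries. For LPS library 3 the values were 0.721 and 0.742, against 0.916 between LPS libraries 1 and 2. For continuous library 3 they were 0.803 and 0.878, against 0.880, so it stood apart from continuous library 1 only. For untreated library 3 they were 0.898 and 0.870, against 0.917. Counts are therefore also given without pool 3 and without the block for pools. The macrophage markers were present. Csf1r, Adgre1, Cd68, Itgam, Spi1, Mertk, Fcgr1, Lyz2 and Mpeg1 all had regions, and their values in the 6 libraries lay between 937 at Cd68 in late library 1 and 11553 at Spi1 in continuous library 1, all above the median gene value of 362.

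The promoters of 6 genes are shown because a region that differed between late and continuous IL-10 covers each of them. Among the cytokine, interferon and IL-10 target genes named here with a usable promoter entry, their regions differed most. Sequences are from RefSeq (GRCm38.p6, which is mm10), 5′ to 3′ on the strand of the gene, from 250 bases before to 50 bases after its start. Capitals mark matches on either strand to an interferon response element (GAAA, any 2 bases, GAAA), a STAT palindrome (TTCNNNGAA), an AP-1 site (TGANTCA), the NF-kB consensus or the PU.1 core (GAGGAAGT). No 2 matches shown overlap.
Il6 (chr5:30012864-30013163, plus strand): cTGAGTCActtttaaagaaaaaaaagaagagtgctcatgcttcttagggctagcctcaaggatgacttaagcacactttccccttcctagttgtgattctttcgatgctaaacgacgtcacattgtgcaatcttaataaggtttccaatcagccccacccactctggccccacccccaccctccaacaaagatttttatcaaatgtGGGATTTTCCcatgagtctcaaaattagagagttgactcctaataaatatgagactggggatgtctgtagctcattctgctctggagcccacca
Il12b (chr11:44399813-44400112, plus strand): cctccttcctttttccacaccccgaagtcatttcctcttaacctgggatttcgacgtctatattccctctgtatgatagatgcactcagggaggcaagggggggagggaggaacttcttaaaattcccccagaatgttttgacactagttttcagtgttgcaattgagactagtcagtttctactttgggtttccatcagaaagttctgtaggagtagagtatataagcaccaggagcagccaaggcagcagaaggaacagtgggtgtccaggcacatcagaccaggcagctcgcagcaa
Cmpk2 (chr12:26468965-26469264, plus strand): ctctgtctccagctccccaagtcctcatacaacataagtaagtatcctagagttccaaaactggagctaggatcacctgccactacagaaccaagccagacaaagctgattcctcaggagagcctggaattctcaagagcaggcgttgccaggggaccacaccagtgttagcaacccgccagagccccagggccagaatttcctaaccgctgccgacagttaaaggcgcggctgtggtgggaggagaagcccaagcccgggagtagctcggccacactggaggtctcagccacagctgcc
Rsad2 (chr12:26456403-26456702, minus strand): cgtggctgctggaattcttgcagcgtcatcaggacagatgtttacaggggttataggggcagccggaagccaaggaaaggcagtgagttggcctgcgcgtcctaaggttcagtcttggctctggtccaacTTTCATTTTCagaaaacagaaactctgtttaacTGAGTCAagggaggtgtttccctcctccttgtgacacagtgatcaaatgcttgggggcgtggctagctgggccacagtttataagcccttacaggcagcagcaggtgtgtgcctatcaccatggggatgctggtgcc
Ifit2 (chr19:34550444-34550743, plus strand): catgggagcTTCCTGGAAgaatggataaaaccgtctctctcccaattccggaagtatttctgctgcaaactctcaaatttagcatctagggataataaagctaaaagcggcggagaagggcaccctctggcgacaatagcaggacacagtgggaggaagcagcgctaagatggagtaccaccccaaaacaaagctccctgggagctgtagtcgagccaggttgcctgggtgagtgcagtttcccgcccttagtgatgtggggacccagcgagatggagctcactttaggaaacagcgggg
Sphk1 (chr11:116530850-116531149, plus strand): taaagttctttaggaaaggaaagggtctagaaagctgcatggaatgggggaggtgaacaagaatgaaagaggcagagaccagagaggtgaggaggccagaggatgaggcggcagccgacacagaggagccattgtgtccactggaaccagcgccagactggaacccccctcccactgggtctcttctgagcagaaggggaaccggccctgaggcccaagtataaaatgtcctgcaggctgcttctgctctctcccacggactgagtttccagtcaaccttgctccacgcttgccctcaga
The Il6 window held 1 AP-1 match and 1 NF-kB match. The Rsad2 window held 1 interferon response match and 1 AP-1 match, and the Ifit2 window held 1 STAT match. The letters searched were not in the Il12b, Cmpk2 and Sphk1 windows. Of 32817 promoters of the same length in the RefSeq table, 3.43% held the interferon response letters, 8.29% the STAT letters, 7.81% the AP-1 letters, 4.50% the NF-kB consensus and 3.20% the PU.1 letters. Of the 893 promoters inside regions higher with late IL-10, 9.97% held the interferon response letters, against 3.10% of the 775 promoters inside regions lower with late IL-10 and 3.37% of the 14028 promoters inside any tested region. The AP-1 letters were in 9.74% of promoters in higher regions, 7.23% in lower regions and 5.70% in all tested regions. The NF-kB consensus stood in 5.82%, 4.65% and 5.40% of these promoters in the same order. The STAT letters stood in 8.96%, 6.71% and 7.07%, and the PU.1 letters in 4.70%, 5.42% and 3.57%. These shares are descriptions of the windows, with no test.

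Late IL-10 left H3K27ac higher than continuous IL-10 at 2936 regions and lower at 1818. This is 8.02% and 4.96% of the 36621 tested (limma with pools as a block, adjusted p under 0.05). Regions higher with late IL-10 had a median signal of 237 with late IL-10 and 29.3 with continuous IL-10, beside 192 with LPS alone and 37.6 untreated. Regions lower with late IL-10 had a median of 41.0 with late IL-10 and 171 with continuous IL-10, beside 81.6 with LPS alone and 270 untreated. High late and low continuous values in the higher regions, and the reverse in the lower ones, are fixed by the choice of these regions, and so are the counts against LPS alone that follow, which share the LPS libraries. Of the 2936 regions higher with late than with continuous IL-10, late IL-10 lay above LPS at 607, where 2258 of all tested regions (6.17%) lay above it. Continuous IL-10 lay below LPS at 1752 of the 2936, where 3287 of all tested regions (8.98%) lay below it. Of the 1818 regions lower with late IL-10, late IL-10 lay below LPS at 280, where 704 of all tested regions (1.92%) did, and continuous IL-10 above LPS at 669, where 2719 of all tested regions (7.42%) did. In bulk libraries, fewer cells carrying the mark and less of the mark per cell cannot be told apart.

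The median log2 difference was 2.83 in the higher regions and -2.54 in the lower ones, or 2.58 and -2.22 with groups at 3 reads or fewer set to 3 reads. All 3 continuous libraries lay at 3 reads or fewer in 586 of the higher regions (20.0%), and all 3 late libraries did so in 262 of the lower regions (14.4%). By pool, the median difference in the higher regions was 2.65, 2.83 and 2.03 in pools 1, 2 and 3, and in the lower regions it was -2.57, -2.31 and -1.35. The third pool showed the smallest median difference in both sets. The late and continuous libraries did not overlap at 2338 of the 2936 higher and 1454 of the 1818 lower regions, beside 8273 of all 36621 tested. Lack of overlap is thus common among called regions, and below it describes the values without adding support to a call. The called regions were wide, with a median of 5774 bp for the higher and 6700.0 bp for the lower ones, against 3412 bp for all tested. Without the block, 680 regions were higher (1.86%) and 312 lower (0.852%), and all of these were also called with it. Without pool 3, 3302 were higher (9.02%) and 1490 lower (4.07%), without pool 2 the counts were 153 and 51, and without pool 1 they were 666 and 219.

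Over genes, 1306 were higher with late IL-10 (9.69%) and 966 lower (7.17%) of 13481 tested, so that 57.5% of the calls were higher. On whole reads recovered from the signal, edgeR with TMM scaling called 1449 higher and 680 lower, with 68.1% higher. Without the block, limma called 254 higher (1.88%) and 90 lower (0.668%), and without pool 3 it called 1940 higher (14.4%) and 1193 lower (8.85%).

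The direction of the difference varied with what LPS alone did to a region. The LPS minus untreated difference uses none of the 6 late and continuous libraries. Its calls come from the same fit, in which all 12 libraries share 1 estimate of spread per region. The calls of both contrasts are thus not independent, and a region of low spread is more readily called in both. LPS raised 8840 of the tested regions (24.1%) and lowered 9128 (24.9%). Of the LPS-raised regions, 20.2% were higher and 1.45% lower with late than with continuous IL-10. Of the LPS-lowered regions, 2.98% were higher and 11.4% lower. Regions that were not called with LPS were higher in 4.72% and lower in 3.48% of cases. Counted the other way, 60.8% of the regions higher with late IL-10 had been raised by LPS and 9.26% lowered by it, and 57.3% of the regions lower with late IL-10 had been lowered by LPS and 7.04% raised. Among genes, 732 of the 2711 that LPS raised (20.1% of all) were higher with late IL-10, and 599 of the 3159 that LPS lowered (23.4% of all) were lower.

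**Figure D1:**
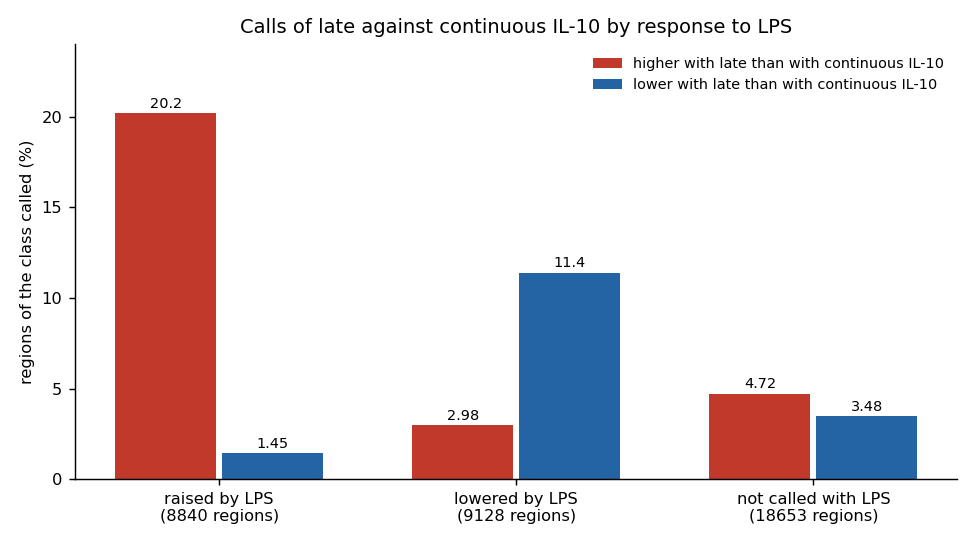
Percent of tested regions called higher (red) or lower (blue) with late than with continuous IL-10, within the regions that LPS raised, lowered or left uncalled against untreated cells. The red bar stands at 20.2% for LPS-raised regions and the blue bar at 11.4% for LPS-lowered regions, each above the other bar of its class.

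At 16 cytokine and chemokine genes H3K27ac was higher with late than with continuous IL-10. Of 30 listed genes, 29 were tested, and limma called 16 higher (55.2%, against 9.69% of all genes) and 0 lower (against 7.17%), with 1 lower at an unadjusted p under 0.05 and 0 lower by edgeR and DESeq2. The median log2 difference was 1.40, against -0.12 over all genes tested. The 16 were Il6, Il12a, Il12b, Il27, Il18, Il15, Csf2, Ccl2, Ccl3, Ccl4, Ccl5, Ccl7, Ccl22, Cxcl3, Cxcl9 and Cxcl10. Against LPS alone, whose libraries serve both contrasts, the list had a median of -0.37 with late IL-10 and -1.62 with continuous IL-10. Late IL-10 left 4 of the 29 below LPS, against 3.01% of all genes, and continuous IL-10 left 18 below, against 10.2% of all genes.

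Il6, which encodes a fever-inducing and acute phase cytokine, showed the largest log2 difference of the genes named here. Its value was 7412, 9268 and 534 in late libraries 1, 2 and 3, against 8.43, 6.35 and 4.93 in continuous libraries 1, 2 and 3. Late library 3 was the lowest of its group, and it still lay far above every continuous library, all of which lay at 1 read in each of its 5 regions. The difference was at least 291-fold in the deposited values (log2 difference 8.80, SE 0.78, adjusted p = 7.4e-05). LPS alone gave 10200.0, 12850.5 and 424 and untreated cells 4.95, 6.3 and 2.09, so the continuous libraries, like the untreated ones, lay at the lower end of what the values can show. The strongest Il6 region, chr5:29910297-29979424, lay 33690 bp from the gene and held 5037, 6785 and 306 with late IL-10, against 1.69, 1.27 and 0.986 with continuous IL-10. A second region, chr5:30006893-30019440, covers the Il6 promoter printed above and held 1844, 1838 and 226 with late IL-10, against 1.69, 1.27 and 0.986 with continuous IL-10. It was at least 330.5-fold higher in the deposited values (log2 difference 8.64, adjusted p = 8.52e-05).

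Il12b, the gene of the p40 subunit shared by IL-12 and IL-23, held 1109, 928 and 93 with late IL-10 and 42.2, 6.35 and 16.8 with continuous IL-10 (log2 difference 4.69, SE 0.73, adjusted p = 0.00164). The groups did not overlap, and late library 3 was again the lowest of its group. LPS alone gave 4106, 2946 and 303, which is above the late value in each pool. Cxcl10 and Cxcl9 encode chemokines that draw activated T cells. Cxcl10 held 10264, 10202 and 6167 with late IL-10, against 2789, 1506 and 1892 with continuous IL-10 (log2 difference 2.11, SE 0.26, adjusted p = 0.000115), and LPS alone gave 9791, 9962 and 3863. Cxcl9 held 944, 1009 and 507 with late IL-10 and 180.4, 69.9 and 118 with continuous IL-10 (log2 difference 2.77, adjusted p = 0.00038). LPS alone gave 1165, 1020.0 and 601 at Cxcl9. Neither gene showed overlap between late and continuous IL-10, and in each pool the late value lay above LPS alone at Cxcl10 and below it at Cxcl9. Ccl7, a monocyte-attracting chemokine, held 3767, 4001 and 1185 with late IL-10 and 285, 156 and 56.2 with continuous IL-10, a log2 difference of 4.25 (adjusted p = 0.0466).

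Other central inflammatory genes of the list were not called. Tnf, the gene of tumour necrosis factor, held 9709, 9309.6 and 9894 with late IL-10 and 7771, 9600.4 and 9772 with continuous IL-10. The groups overlapped, and the log2 difference was 0.10 with a 95% interval of -0.27 to 0.47. Tnf was raised by LPS, with 14928, 17258 and 15555 in LPS libraries, and it lay below LPS with late IL-10 (log2 -0.72, adjusted p = 0.0137) and with continuous IL-10 (log2 -0.82, adjusted p = 0.00396). Tnf shares its region with Lta and Ltb. Il1b held 10466, 14676 and 4627 with late IL-10 and 7266, 5917 and 3406 with continuous IL-10, with overlap and a log2 difference of 0.76 (adjusted p = 0.222).

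The calls at Il6, Cxcl10 and Cxcl9 held without the block and without each library or pool. That at Il12b ended without the block (adjusted p = 0.0629) and without pool 1 (adjusted p = 0.0669), and that at Ccl7 ended without the block (adjusted p = 0.159), without pools 1 or 2 and without each of the 6 libraries in turn. The count of 16 became 5 without the block, 9 without late library 1, 8 without late library 2 or without continuous library 2, 10 without pool 1, 7 without pool 2 and 15 without pool 3.

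**Figure D2:**
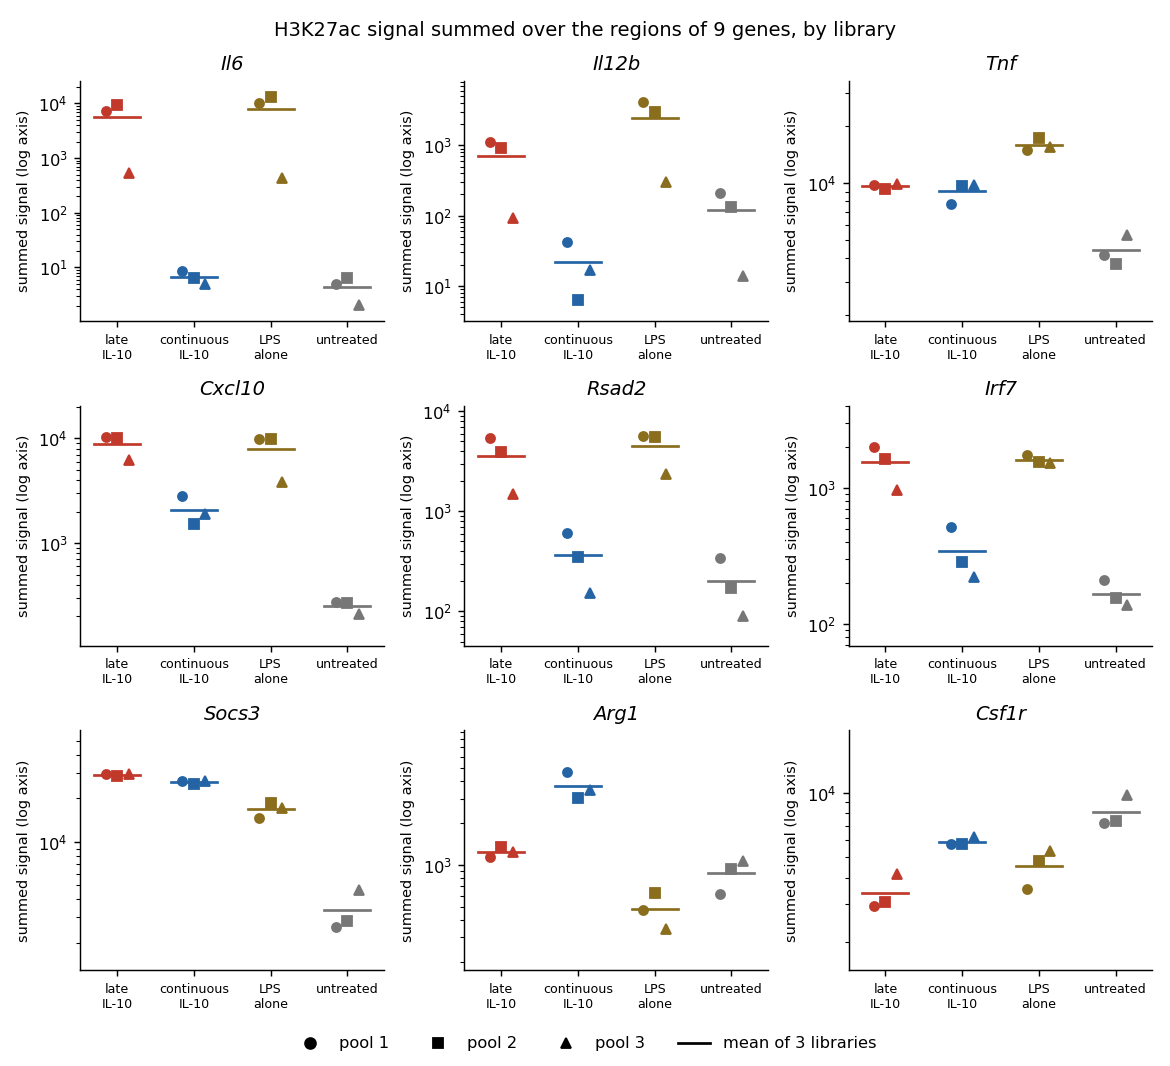
H3K27ac signal summed over the regions of 9 genes (log axis), for late IL-10, continuous IL-10, LPS alone and untreated macrophages. Each point is a library, shaped by pool, and each line is a group mean. The late and continuous points are separate at Il6, Il12b, Cxcl10, Rsad2, Irf7, Arg1, Csf1r and, by a small margin, Socs3, and overlap at Tnf.

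The interferon response list had the largest share of called genes among the 12 lists of macrophage genes. Of 40 listed genes, 38 were tested, and limma called 31 higher with late IL-10 (81.6%, against 9.69% of all genes) and 0 lower (against 7.17%), with 0 lower also at an unadjusted p under 0.05 and by edgeR and DESeq2. The list had a median log2 difference of 1.56. Against LPS alone, the list had a median of -0.01 with late IL-10 and -1.64 with continuous IL-10. Late IL-10 left 0 of the 38 below LPS (limma, with 1 below at an unadjusted p under 0.05), against 3.01% of all genes, and continuous IL-10 left 33 below it, against 10.2% of all genes. Irf7, a transcription factor that amplifies the type I interferon response, held 2023, 1652 and 976 with late IL-10 and 519, 285 and 221 with continuous IL-10 (log2 difference 2.21, SE 0.25, adjusted p = 7.4e-05). LPS alone gave 1753, 1551 and 1518, and untreated cells gave 209, 154 and 138. Late library 3 was the lowest of its group and still above every continuous library.

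Rsad2 and Cmpk2, neighbours that encode the antiviral enzyme viperin and a nucleotide kinase, share their main region, chr12:26451449-26473874, which covers both promoters printed above. That region held 5125, 3698 and 1383 with late IL-10, against 501, 301 and 107 with continuous IL-10, without overlap (log2 difference 3.55, SE 0.24, adjusted p = 1.08e-05). LPS alone gave 5488, 5277 and 2221. In each pool the late value lay below LPS alone and above the continuous one, nearer to LPS. Ifit2, which encodes an interferon-induced RNA-binding protein, held 3355, 3714 and 1366 with late IL-10 and 671, 239 and 52.2 with continuous IL-10, a log2 difference of 3.65 (adjusted p = 7.28e-05). Iigp1, an interferon-inducible GTPase gene, held 747, 588 and 58.5 with late IL-10 and 67.4, 5.08 and 1.97 with continuous IL-10. Its groups overlapped across pools, since continuous library 1 lay above late library 3, and each pool was higher with late IL-10 (log2 difference 4.79, adjusted p = 0.00469).

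The gene of interferon beta itself differed less. Ifnb1 held 435, 554 and 357 with late IL-10 and 187, 219.8 and 225 with continuous IL-10 (log2 difference 1.07, SE 0.30, adjusted p = 0.0227). The groups did not overlap, but LPS alone gave 1027, 1039 and 546, above the late values in each pool. None of the tested Ifnb1 regions was called on its own. Their log2 differences lay between -0.42 (adjusted p = 0.806) and 1.88 (adjusted p = 0.151). The calls at Irf7, Rsad2, Cmpk2 and Ifit2 held without the block and without each library or pool. The call at Iigp1 ended without the block (adjusted p = 0.129) and without pool 2 (adjusted p = 0.0762), and that at Ifnb1 ended without the block (adjusted p = 0.139), without pools 1 or 2, and without each library but continuous library 3. The count of 31 became 8 without the block, 12 without pool 2, 28 without pool 1 and 33 without pool 3. Without single libraries it lay between 22 and 32.

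Genes listed as IL-10 and STAT3 targets were more often called higher with the shorter exposure than with the longer one, and 20 were not called. Of 34 listed, 33 were tested, and 12 were higher (36.4%) and 1 lower (3.03%) with late IL-10, against 9.69% and 7.17% of all genes, with a median of 0.66. Against LPS alone, 17 of the 33 were above LPS with late IL-10, against 6.73% of all genes, and 13 with continuous IL-10, against 7.34% of all genes. Socs3, which encodes a feedback inhibitor of some cytokine receptors, held 29279.8, 28807 and 29545 with late IL-10 and 26550.0, 25317 and 26424 with continuous IL-10. The groups did not overlap, but the log2 difference of 0.16 was not called (adjusted p = 0.608, 95% interval -0.24 to 0.57). Both schedules lay above LPS alone, which gave 14682, 18663 and 17100.4. Bcl3, an atypical inhibitor of NF-kB, held 6833, 6912 and 6828 with late IL-10 and 4136, 3119.7 and 4676 with continuous IL-10 (log2 difference 0.81, SE 0.19, adjusted p = 0.0109), beside 1539, 1633 and 2628 with LPS alone. Nfil3, a basic leucine zipper repressor, held 3789.8, 4379 and 3552 with late IL-10 and 1765, 1956 and 1972 with continuous IL-10 (log2 difference 1.04, adjusted p = 0.00746). At both genes every late library lay above every continuous one, and every continuous one above every LPS library.

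Sphk1, which makes the lipid mediator sphingosine-1-phosphate, held 483, 340.4 and 223 with late IL-10 and 16.9, 38.1 and 46.3 with continuous IL-10 (log2 difference 3.38, SE 0.79, adjusted p = 0.00896), beside 3.94, 8.4 and 0.927 with LPS alone. Cish, a SOCS family gene, held 3605, 3599.5 and 1627 with late IL-10 and 676, 598 and 622 with continuous IL-10 (log2 difference 2.13, adjusted p = 0.00038), beside 2639, 3097 and 955 with LPS alone. Gadd45g, a stress-response gene, held 1127, 907 and 1654 with late IL-10 and 167, 255 and 698 with continuous IL-10 (log2 difference 1.94, adjusted p = 0.00117). Sphk1 was thus near the floor with LPS alone and far above it after 30 min of IL-10, while LPS alone already gave Cish values above every continuous library.

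Arg1, the gene of arginase 1, went the other way. It held 1139, 1353 and 1232 with late IL-10 and 4640.3, 3012 and 3464 with continuous IL-10, without overlap (log2 difference -1.56, SE 0.27, adjusted p = 0.00131). LPS alone gave 474, 622 and 347, so both schedules lay above LPS, by log2 1.40 with late IL-10 and 2.96 with continuous IL-10. Limma called neither of the receptor genes Il10ra and Il4ra, and DESeq2 called Il4ra (adjusted p = 0.0194). Il10ra, the ligand-binding chain of the IL-10 receptor, held 10625, 11845 and 9651 with late IL-10 and 9346, 8489 and 9230.1 with continuous IL-10 (log2 difference 0.24, adjusted p = 0.383). Il4ra held 16306, 17297 and 13638 with late IL-10 and 13402, 9428 and 10786 with continuous IL-10 (log2 difference 0.50, adjusted p = 0.0804). Neither receptor gene showed overlap between the groups. Il4ra shares 1 region with Il21r, which was among the 12 called. Limma called that shared region higher (log2 difference 0.66, adjusted p = 0.0188), a call that ended without the block (adjusted p = 0.0671). The other tested Il4ra regions were not called.

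The calls at Cish and Arg1 held without the block and without each library or pool. Those at Bcl3, Nfil3, Sphk1 and Gadd45g ended without the block, with adjusted p = 0.105, 0.0536, 0.0552 and 0.0874 in that order. Bcl3, Nfil3 and Sphk1 also ended without pools 1 or 2 and without late library 1, Bcl3 and Nfil3 without late library 2, and Bcl3 without continuous library 2. The 12 higher genes became 3 without the block, 5 without late library 1, 6 without late library 2, 6 without pool 1, 3 without pool 2 and 18 without pool 3, while Arg1 was the 1 lower gene in each of these.

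**Figure D3:**
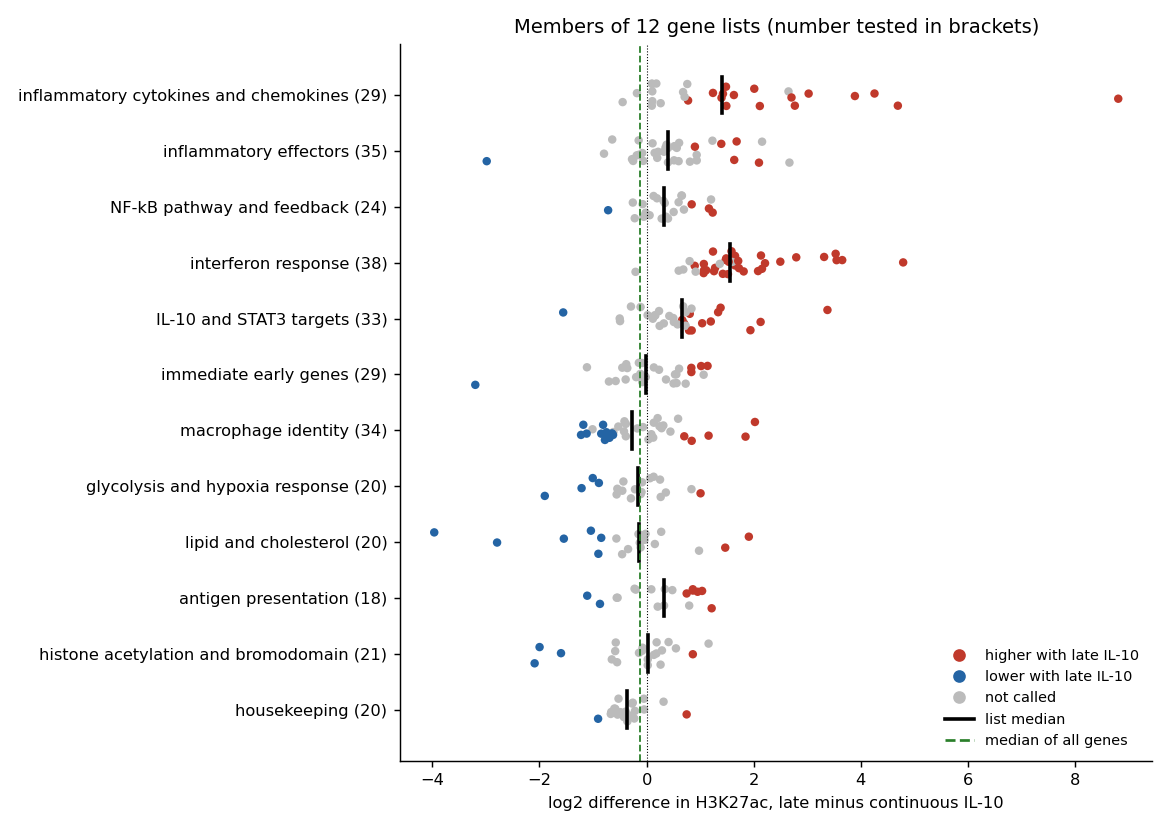
Log2 difference in H3K27ac, late minus continuous IL-10, for the tested members of 12 gene lists. Each point is a gene, coloured by its call, black bars are list medians and the dashed line is the median of all genes at -0.12. The interferon and cytokine lists have medians of 1.56 and 1.40 and no gene called lower, and the macrophage identity list has 10 genes called lower and 5 higher.

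Of 35 inflammatory effectors, all tested, limma called 5 higher (14.3%) and 1 lower (2.86%), against 9.69% and 7.17% of all genes, and the median was 0.40. Cd40 and Cd86 encode costimulatory surface proteins that bind partners on T cells. Cd40 held 3682, 3492 and 2147 with late IL-10 and 1052, 951 and 835 with continuous IL-10 (log2 difference 1.68, adjusted p = 0.000167), and Cd86 held 2177, 1736 and 504 with late IL-10 and 492, 288 and 169.5 with continuous IL-10 (log2 difference 2.10, adjusted p = 0.00284). Neither overlapped between the groups. Mmp9, a matrix metalloproteinase gene, was lower with late IL-10, at 14.1, 120.0 and 51.4, against 298, 583 and 270.1 with continuous IL-10 (log2 difference -2.98, adjusted p = 0.0176).

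Nos2, the inducible nitric oxide synthase gene, held 2672, 2599.7 and 843 with late IL-10 and 2275, 1024 and 724 with continuous IL-10, with overlap (log2 difference 0.60, adjusted p = 0.26). Ptgs2, the inducible cyclooxygenase gene, held 6410.4, 7561 and 1738 with late IL-10 and 5909.9, 5338 and 1766 with continuous IL-10, also with overlap (log2 difference 0.20, adjusted p = 0.858). In both genes and in both groups the third library was the lowest.

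Of 24 NF-kB pathway genes, 3 were higher (12.5%) and 1 lower (4.17%), against 9.69% and 7.17% of all genes, with a median of 0.33. Tnfaip3, which encodes the feedback inhibitor A20, had overlapping groups at 39152, 54708 and 15195 with late IL-10 and 27563, 20467 and 10019 with continuous IL-10, and each pool was higher with late IL-10 (log2 difference 0.84, adjusted p = 0.037). Tnip3, which encodes an A20-binding protein, held 6254, 10082 and 3284 with late IL-10 and 3099, 2984 and 1721 with continuous IL-10 (log2 difference 1.23, adjusted p = 0.00597). Ripk2, a kinase gene of NOD receptor signalling, had a log2 difference of 1.16 (adjusted p = 0.0114), and Nfkbid, an atypical inhibitor of NF-kB, one of -0.72 (adjusted p = 0.0212). Nfkbia, the gene of the main NF-kB inhibitor, held 15526, 18970.4 and 11723 with late IL-10 and 16915, 14037 and 11081 with continuous IL-10, with overlap and a log2 difference of 0.13 (adjusted p = 0.746).

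Of these genes, the call at Cd40 held without the block and without each library or pool. Those at Cd86, Mmp9, Tnip3, Ripk2, Tnfaip3 and Nfkbid ended without the block, with adjusted p between 0.116 at Cd86 and 0.514 at Tnfaip3. Without pool 2, the call at Cd86 held and the other 5 ended, and without pool 1 those at Mmp9, Tnfaip3 and Nfkbid ended. Without late library 1 or without late library 2, those at Mmp9, Ripk2, Tnfaip3 and Nfkbid ended, without continuous library 2 those at Tnip3, Ripk2, Tnfaip3 and Nfkbid, without continuous library 1 those at Mmp9 and Nfkbid, without late library 3 those at Tnfaip3 and Nfkbid, and without continuous library 3 that at Tnfaip3. The call at Tnfaip3 was also lost with edgeR. The 5 higher effectors became 2 without the block and 8 without pool 3, and 3 without late library 1, without continuous library 2, or without pools 1 or 2. The 3 higher NF-kB genes became 0 without the block, without continuous library 2 or without pool 2, 1 without late library 1 or 2, 2 without continuous library 3 or pool 1, and 7 without pool 3.

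Immediate early genes, which are switched on within minutes of a stimulus, had 4 members higher (13.8%) and 1 lower (3.45%) of 29, against 9.69% and 7.17% of all genes, and a median of -0.02. The 4 higher became 0 without the block, late library 1, pool 1 or pool 2, 1 without late library 2 or continuous library 2, 3 without continuous library 1, 8 without pool 3 and 10 with DESeq2, and the 1 lower became 0 without the block, without each continuous library and without pools 1 or 2. Klf6 held 29741, 35923 and 7555 with late IL-10 and 12316, 10786 and 5699 with continuous IL-10, with overlap and a log2 difference of 1.14 (adjusted p = 0.0414). Csrnp1 and Fosl2 had log2 differences of 1.02 (adjusted p = 0.00626) and 0.84 (adjusted p = 0.0162). Egr1 was the gene called lower, with 149.7, 1.79 and 115 with late IL-10 and 411, 244 and 373 with continuous IL-10 (log2 difference -3.20, adjusted p = 0.0459). Late library 2 lay at 1 read at Egr1. These 4 calls ended without the block and without pools 1 or 2, and Egr1 also without pool 3, where another gene of the list was lower. Those at Klf6, Fosl2 and Csrnp1 ended without late library 1, Klf6 and Fosl2 also without late library 2 or continuous library 2, Klf6 without continuous library 1, Fosl2 without continuous library 3 and Egr1 without each continuous library.

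Macrophage identity genes differed in both directions. Of 35 listed, 34 were tested, and 5 were higher (14.7%) and 10 lower (29.4%) with late IL-10, against 9.69% and 7.17% of all genes, with a median of -0.28. The 10 lower genes were Csf1r, Maf, Ctsd, Ctsl, Cd36, Apoe, Trem2, Tyrobp, Cx3cr1 and Gpnmb. Csf1r, the M-CSF receptor gene, held 2952, 3092 and 4150.5 with late IL-10 and 5780.1, 5744 and 6176 with continuous IL-10, without overlap (log2 difference -0.81, SE 0.17, adjusted p = 0.00532), beside 3538, 4766 and 5359 with LPS alone and 7234, 7365 and 9763 untreated. Its region is chr18:61065582-61132982, which Hmgxb3 and Pdgfrb share. Cx3cr1, the fractalkine receptor gene, held 2316, 1842 and 4525 with late IL-10 and 7154, 4775 and 7201 with continuous IL-10 (log2 difference -1.22, SE 0.21, adjusted p = 0.00129). Every late library was below every continuous one, and in both groups library 2 was the lowest. Trem2, a lipid-sensing receptor gene, held 403, 627 and 1041 with late IL-10 and 1419.7, 1153 and 1653 with continuous IL-10 (log2 difference -1.12, adjusted p = 0.00692). Cd36, a scavenger receptor gene, held 1687, 2575 and 1108 with late IL-10 and 4659, 5367 and 2246 with continuous IL-10, with overlap between pools and a log2 difference of -1.18 (adjusted p = 0.00131).

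The 5 higher identity genes were Tfec, Mertk, Fcgr1, Mrc1 and Pparg. Mrc1, the mannose receptor gene, held 1904, 2752 and 1283 with late IL-10 and 502, 549 and 362 with continuous IL-10 (log2 difference 2.02, SE 0.23, adjusted p = 7.73e-05). LPS alone gave 488, 420.1 and 199 and untreated cells 1345, 1830.4 and 790.1, so Mrc1 was lowered by LPS, and it was above LPS with late IL-10 by log2 2.45, against 0.43 with continuous IL-10. Pparg, a lipid-activated nuclear receptor gene, held 2425, 2390.1 and 1992 with late IL-10 and 873, 845 and 1407 with continuous IL-10 (log2 difference 1.16, adjusted p = 0.00393), beside 866, 958 and 854 with LPS alone and 4506, 5061 and 3361 untreated. Tfec, a transcription factor gene of the MiT family, held 3924, 9655 and 2698 with late IL-10 and 1457, 2018 and 745 with continuous IL-10 (log2 difference 1.85, adjusted p = 0.000158). Mrc1, Pparg and Tfec showed no overlap between the groups.

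The call at Mrc1 held without the block and without each library or pool. Those at Cx3cr1, Cd36 and Tfec ended without the block (adjusted p = 0.146, 0.273 and 0.154) and held without each library or pool. Those at Csf1r and Trem2 ended without the block (adjusted p = 0.0686 and 0.177) and without pools 1 or 2, and Trem2 also without late library 1. That at Pparg ended without pools 1 or 2. The split of 5 higher and 10 lower became 2 and 0 without the block, 3 and 3 without late library 1, 3 and 6 without late library 2, 5 and 6 without late library 3, 4 and 4 without continuous library 1, 3 and 6 without continuous library 2, 3 and 2 without pool 1, 2 and 2 without pool 2, and 6 and 13 without pool 3.

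Of 20 lipid and cholesterol genes, 2 were higher and 6 lower with late IL-10, and of 20 glycolysis and hypoxia genes, 1 was higher and 4 lower, against 9.69% higher and 7.17% lower of all genes. Ch25h, which makes 25-hydroxycholesterol, held 31129, 29943 and 9203 with late IL-10 and 12818, 5157 and 2449 with continuous IL-10, with overlap and a log2 difference of 1.91 (adjusted p = 0.0177). Abcg1, a cholesterol exporter gene, held 3186, 3456 and 1294 with late IL-10 and 1234, 832 and 653 with continuous IL-10 (log2 difference 1.47, adjusted p = 0.00133). Fasn, Scd2 and Hmgcs1 are genes of fatty acid and sterol synthesis. Fasn held 3.52, 1.79 and 247 with late IL-10 and 133, 205 and 431 with continuous IL-10, a log2 difference of -3.96 (adjusted p = 0.0123). Scd2 held 15.8, 66.3 and 166 with late IL-10 and 312, 439.5 and 453 with continuous IL-10, a log2 difference of -2.79 (adjusted p = 0.00525). Hmgcs1 held 155, 194 and 726 with late IL-10 and 605, 1030.2 and 875 with continuous IL-10, a log2 difference of -1.54 (adjusted p = 0.0152). In all 3, late library 3 was the highest of the late group, and at Fasn and Hmgcs1 it overlapped the continuous libraries. Late libraries 1 and 2 lay near the floor at Fasn, where 1 read has a value of 1.76 and 1.79 in that order.

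Hk3, a hexokinase gene, had a log2 difference of 1.01 (adjusted p = 0.0211). Egln3, a prolyl hydroxylase gene of the hypoxia response, held 326, 602 and 786 with late IL-10 and 1797, 2115 and 2118 with continuous IL-10 (log2 difference -1.90, adjusted p = 0.0471), and Vegfa, a growth factor gene, had a log2 difference of -1.21 (adjusted p = 0.0259). Pfkl, a phosphofructokinase gene, held 534, 543 and 949 with late IL-10 and 1263, 1313 and 1342 with continuous IL-10 (adjusted p = 0.026). All metabolic calls named here ended without the block. Those at Ch25h, Fasn, Hmgcs1, Hk3, Egln3, Vegfa and Pfkl also ended without late library 2 or continuous library 2, all of these but Ch25h without late library 1, all but Vegfa without continuous library 1, Egln3 and Pfkl without late library 3 and Vegfa without continuous library 3. Without pool 1 those at Ch25h, Fasn, Hmgcs1, Hk3, Egln3 and Pfkl ended, without pool 2 those at Ch25h, Fasn, Hmgcs1, Hk3, Vegfa and Pfkl, and with edgeR those at Fasn, Hmgcs1 and Vegfa. Scd2 ended without pool 2 (adjusted p = 0.0675) and Abcg1 held without each pool. The 6 lower lipid genes became 1 without the block, 2 without late library 1, 3 without late library 2, continuous library 1 or continuous library 2, 1 without pool 1 and 0 without pool 2, and the 4 lower glycolysis and hypoxia genes became 0 without the block, late library 1, late library 2 or continuous library 2 and 1 without late library 3, continuous library 1, pool 1 or pool 2.

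Of 18 antigen presentation genes tested, 6 were higher (33.3%, against 9.69% of all genes) and 2 lower (11.1%, against 7.17%), with a median of 0.33, and the 2 lower became 0 with median centring, edgeR and DESeq2. Psmb9 and Tap1, neighbouring genes that make and transport peptides for MHC class I, had log2 differences of 1.21 (adjusted p = 0.013) and 1.04 (adjusted p = 0.0153), and Psmb9 held 1752, 1306 and 1115 with late IL-10 and 766, 570.3 and 466 with continuous IL-10. Ciita, the master activator of MHC class II genes, held 11812, 14011 and 14035 with late IL-10 and 5299.5, 6106 and 9905 with continuous IL-10 (log2 difference 0.95, adjusted p = 0.00284). The class II chain genes H2-Aa and H2-Eb1 were the 2 lower ones, at -1.11 (adjusted p = 0.0176) and -0.87 (adjusted p = 0.0417). All 5 of these calls ended without the block. Without pool 2 all 5 ended, and without pool 1 those at Tap1, Ciita, H2-Aa and H2-Eb1 did. Psmb9 and Tap1 also ended without late libraries 1 or 2 or continuous library 3, H2-Aa without late library 1 or continuous libraries 1 or 3, and H2-Eb1 without any 1 of the libraries but late library 3. The 6 higher genes became 0 without the block or pool 2, 1 without late library 1, late library 2 or pool 1, 4 without continuous library 1, and 3 without continuous library 2 or 3.

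Genes that write, erase or read histone acetylation showed 1 higher (4.76%) and 3 lower (14.3%) of 21, against 9.69% and 7.17% of all genes, with a median of 0.02. These counts became 0 and 0 without the block, 0 and 1 without late library 1, late library 2, continuous library 2 or pool 2, 1 and 1 without continuous library 1, 0 and 2 without pool 1, and 2 and 3 without continuous library 3 or pool 3. Kat2a, an acetyltransferase gene, had a log2 difference of 0.86 (adjusted p = 0.012). The deacetylase genes Hdac5 and Hdac3 had log2 differences of -2.00 (adjusted p = 0.0102) and -2.09 (adjusted p = 0.0395). These 3 calls ended without the block, without late libraries 1 or 2, without continuous library 2 and without pool 2, Kat2a and Hdac3 also without pool 1, Hdac5 and Hdac3 without continuous library 1, and Hdac3 with median centring and edgeR. Of 20 housekeeping genes, 1 was higher (B2m) and 1 lower (Polr2a), against 9.69% and 7.17% of all genes, and the median was -0.37, beside -0.12 over all genes. Both calls ended without the block (adjusted p = 0.261 at B2m and 0.171 at Polr2a), without pools 1 or 2 and without late library 1, late library 2 or continuous library 2, and B2m also without continuous library 1. Actb held 6359, 5984 and 6269 with late IL-10 and 6972, 5597 and 6736 with continuous IL-10 (log2 difference -0.05, adjusted p = 0.899). Gapdh held 763, 1061 and 1321 with late IL-10 and 1676, 1275 and 1488 with continuous IL-10 (log2 difference -0.52, adjusted p = 0.319). Both overlapped, and the sign at Actb turned to 0.02 with median centring, 0.03 with edgeR and 0.06 with DESeq2.

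The regions with the largest log2 differences included 1 at Selp. The region chr1:164110338-164125546 overlapping Selp, the P-selectin gene, held 955, 991 and 236 with late IL-10 and 1.69, 1.27 and 0.986 with continuous IL-10, at least 184-fold higher in the deposited values (log2 difference 8.05, SE 0.88, adjusted p = 0.000314). LPS alone gave 1.97, 1.68 and 0.464 and untreated cells 12, 44.1 and 0.419, so every late library lay above every library of the other 3 groups. A region within Mertk, chr2:128760912-128773025, held 1023, 910.2 and 116 with late IL-10 and 1.69, 1.27 and 0.986 with continuous IL-10 (at least 173-fold higher, log2 difference 7.70, adjusted p = 0.00186), beside 395, 185 and 0.464 with LPS alone. A region 11470 bp from Tnfsf4, the OX40 ligand gene, chr1:161365596-161383968, held 1296, 788 and 121 with late IL-10 and 1.69, 1.27 and 0.986 with continuous IL-10 (at least 187-fold higher, log2 difference 7.77, adjusted p = 0.00311). In each of these regions all 3 continuous libraries lay at 1 read and late library 3 was the lowest late one. The region chr18:74864680-74890351, which lies 48971 bp from Lipg, the endothelial lipase gene, held 3936, 2817 and 641 with late IL-10 and 55.6, 1.27 and 0.986 with continuous IL-10 (log2 difference 8.24, adjusted p = 0.00611).

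By summed value, Selp, Lipg, Tmem215 and Olfr701 led the higher genes beside Il6. Olfr701, an olfactory receptor gene to which a single region was assigned, held 759, 1217 and 229 with late IL-10 and 50.6, 1.27 and 0.986 with continuous IL-10 (log2 difference 6.60, adjusted p = 0.00091), and LPS alone gave 63, 16.8 and 0.464. Tmem215 held 399.8, 597 and 92.1 with late IL-10 and 1.69, 1.27 and 0.986 with continuous IL-10 (at least 92-fold higher, log2 difference 6.94, adjusted p = 0.00275). Both differed without overlap. The calls at the Selp region and at Olfr701 held without the block and without each library or pool. That at Tmem215 ended without the block (adjusted p = 0.0529), that at the Lipg region without the block (adjusted p = 0.0512) and without pool 2, that at the Mertk region without pool 2 (adjusted p = 0.081) and that at the Tnfsf4 region without pools 1 or 2.

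Regions lower with late IL-10 could be at the floor in all 3 late libraries. The region chr10:122612291-122617727, 59701 bp from the phosphatase gene Ppm1h, held 1.76, 1.79 and 0.886 with late IL-10 and 324, 182 and 201 with continuous IL-10, at least 53.1-fold higher with continuous IL-10 (log2 difference -6.55, SE 0.66, adjusted p = 0.000149). LPS alone gave 1.97, 1.68 and 0.464 and untreated cells 274, 323 and 349, so the continuous values lay nearer to the untreated than to the LPS values. A region overlapping Cd2, an adhesion receptor gene, chr3:101286507-101298431, held 1.76, 1.79 and 0.886 with late IL-10 and 116, 86.4 and 153 with continuous IL-10 (at least 26.7-fold higher with continuous IL-10, log2 difference -5.58, adjusted p = 0.000149), beside 84.6, 35.3 and 55.6 with LPS alone and 441, 528 and 847 untreated. A region within Zdhhc14, a palmitoyltransferase gene, chr17:5723070-5734811, held 1.76, 1.79 and 0.886 with late IL-10 and 129.8, 188 and 211 with continuous IL-10 (at least 39.7-fold higher with continuous IL-10, log2 difference -6.15, adjusted p = 0.00143). One within Lig1, a DNA ligase gene, chr7:13301785-13305265, held 1.76, 1.79 and 0.886 with late IL-10 and 158, 117 and 73.9 with continuous IL-10 (at least 26.2-fold higher with continuous IL-10, log2 difference -5.52, adjusted p = 0.00057).

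The region chr10:8328111-8333018 within Ust, a sulfotransferase gene, differed from these in its context. It held 3.52, 1.79 and 0.886 with late IL-10 and 214, 171 and 67 with continuous IL-10 (at least 34-fold higher with continuous IL-10, log2 difference -5.56, adjusted p = 0.000391), and it was near the floor with LPS alone, at 1.97, 1.68 and 0.464, and untreated, at 0.707, 1.26 and 0.419. Only the continuous libraries of the 12 lay above 3 reads there. The 4 calls at Ppm1h, Cd2, Ust and Lig1 held without the block and without each library or pool, and that at Zdhhc14 ended without pool 2 (adjusted p = 0.0539). Abcc3, an organic anion transporter gene, held 8.81, 7.17 and 366 with late IL-10 and 543, 527 and 1052 with continuous IL-10 (log2 difference -4.44, adjusted p = 0.0232), and Sort1, the sortilin gene, held 3.52, 10.8 and 239 with late IL-10 and 251, 343 and 584 with continuous IL-10 (log2 difference -3.99, adjusted p = 0.0079). In both, late library 3 was far above the other late libraries, which held few reads. Bicd2, Syngr1 and 1700017B05Rik had log2 differences of -3.69 (adjusted p = 0.0209), -3.76 (adjusted p = 0.037) and -4.44 (adjusted p = 0.012). These 5 calls ended without the block, without pool 2, without late library 2 and without continuous library 1. All but Sort1 also ended without continuous library 2, and all but Bicd2 without pool 1. The calls at Abcc3 and 1700017B05Rik also ended without late library 1.

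Of the called regions with the highest signal, the Tnfaip3 region of 140516 bp, chr10:18991787-19132302, held 37833, 52790.4 and 14705 with late IL-10 and 26429, 19349.5 and 9306 with continuous IL-10 (log2 difference 0.88, adjusted p = 0.0395). The groups overlapped, and each pool was higher with late IL-10. Strong regions at Klf6 and near Prdm1, the Blimp-1 gene, had log2 differences of 1.24 (adjusted p = 0.0343) and 0.79 (adjusted p = 0.0445).

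Strong regions that were lower included 1 over Lrp1 and Stat6, the gene of the IL-4 signal transducer, chr10:127574092-127653264, with 3538, 4277 and 7879 with late IL-10 and 8139, 9799 and 12713 with continuous IL-10 (log2 difference -1.03, adjusted p = 0.00169). One over Slc43a2, an amino acid transporter gene, and Pitpna, chr11:75527806-75601312, held 3503, 3601 and 6039 with late IL-10 and 9373, 9594 and 11336 with continuous IL-10 (log2 difference -1.25, adjusted p = 0.000565). Neither overlapped between the groups. The regions 55646 bp from Zeb2, a zinc finger transcription factor gene, and at Zfp710 had log2 differences of -0.97 (adjusted p = 0.00628) and -0.65 (adjusted p = 0.0183). Of these 7 calls, that at Slc43a2 held without the block (adjusted p = 0.0387) and the other 6 ended. The regions at Lrp1 and Slc43a2 held without each single library and ended without pool 2, Lrp1 also without pool 1. The Zeb2 region ended without late library 1, without pool 1 and without pool 3. The other 4 ended without at least 4 of the 6 libraries and without pools 1 or 2, among them late libraries 1 and 2 and continuous library 2 in each case. Tnfaip3, Prdm1 and Zfp710 also ended with DESeq2. Tnfaip3 ended without late library 3 and continuous library 3 too, and Klf6, Prdm1 and Zfp710 without continuous library 1.

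With gaps of at most 50 kb and no other tested region between them, 947 of the higher regions formed 395 runs, the longest of 11 regions, and 519 of the lower regions formed 224 runs, the longest of 8. The longest run, chr2:101694464-101862114, spanned 168 kb at Prr5l and Traf6, the gene of a ubiquitin ligase of Toll-like receptor signalling. Its summed signal was 10542, 9971 and 5274 with late IL-10 and 1578, 714 and 1038 with continuous IL-10, beside 8044, 8891 and 3260.5 with LPS alone and 2214, 1702 and 1679 untreated, and LPS had raised 8 of its 11 regions. The second, chr13:37018992-37152490, held 8 regions at F13a1, the gene of coagulation factor XIII subunit A, with 1286, 1761 and 1289.6 with late IL-10 and 6640.0, 6006 and 5448 with continuous IL-10. LPS had lowered 7 of the 8, and untreated cells gave 2779, 2766 and 2863, below the continuous values.

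The third run, chr16:87582593-87718621, held 7 regions at Bach1, the gene of a heme-binding repressor, and Map3k7cl. It summed to 11007, 11074 and 7619.9 with late IL-10 and 2369, 1580.2 and 2528 with continuous IL-10. LPS had lowered 6 of the 7 regions, with 1729.5, 1249 and 1939 with LPS alone, against 4994, 4577 and 5390.2 in untreated cells. Late IL-10 thus gave more signal there than any other group, and late library 3 was the lowest of its group. In all 3 runs, which consist of called regions, the late and continuous libraries did not overlap.

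**Figure D4:**
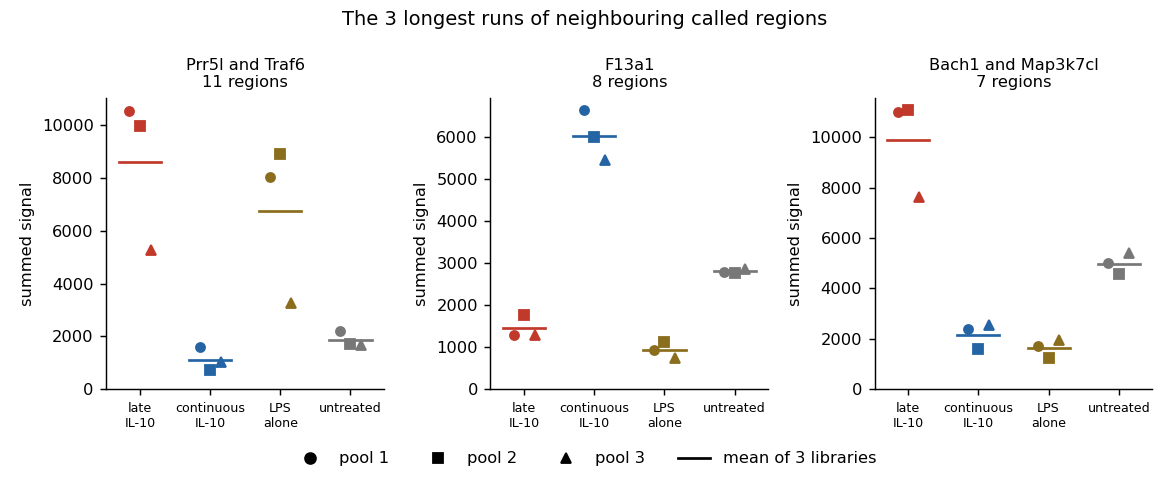
H3K27ac signal summed over the regions of the 3 longest runs of neighbouring called regions, for late IL-10, continuous IL-10, LPS alone and untreated macrophages, on linear axes from 0. Points are libraries shaped by pool and lines are group means. Late libraries lie above continuous ones at Prr5l and Traf6 and at Bach1 and Map3k7cl, and below them at F13a1.

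Markers of other cell types were read in the same libraries. Of 11 T cell markers, Cd3g, Cd8a, Trac and Zap70 had no region and 7 were tested, of which Cd3e, Cd8b1 and Lck were higher with late IL-10 (all lists here stand beside 9.69% higher and 7.17% lower of all genes). The tested markers summed to between 1035 and 1745 with late IL-10 and between 814 and 916 with continuous IL-10. Cd3e held 70.4, 64.5 and 35.4 with late IL-10 and 6.74, 10.2 and 6.9 with continuous IL-10, and LPS alone raised it (log2 4.44 over untreated cells). Its call ended without the block (adjusted p = 0.133), without pools 1 or 2 and without each library but continuous library 3. The call at Cd8b1 ended without the block, late library 1, late library 3, continuous library 3, pool 1 or pool 2, and that at Lck without the block, late library 1 or pool 1. The region assigned to Cd8b1 did not overlap the gene and lay 1700 bp from it. Of 10 dendritic cell markers tested, Clec9a, Batf3 and Tcf4 were higher. The call at Batf3 held without the block and without each library or pool. That at Clec9a ended without the block (adjusted p = 0.291) and without pool 2 (adjusted p = 0.0819), and its 1 called region is shared with Clec12b and Clec1a. That at Tcf4 ended without the block (adjusted p = 0.307), with median centring (adjusted p = 0.084), with edgeR (adjusted p = 0.0899), without pools 1 or 2 and without each library but continuous library 3. The list summed to between 14497 and 28061 with late IL-10 and between 10694 and 17310 with continuous IL-10. Of 6 neutrophil markers tested, Ltf was lower (a call that ended without pool 2), Ly6g and Retnlg lay at the floor in all 6 libraries and Mpo, Ngp, S100a9 and Cxcr2 had no region, and the list summed to between 3263 and 3715 with late IL-10 and between 3975 and 4270 with continuous IL-10. Of 6 fibroblast markers tested, Pdgfrb was lower by its summed value. The region it shares with Csf1r was lower and its other region higher with late IL-10 (log2 difference 2.04, adjusted p = 0.0147), and the call at the gene ended without the block (adjusted p = 0.0993), without pools 1 or 2 and without late libraries 1 or 2 or continuous libraries 1 or 2. The fibroblast sums were 8651 to 18510 with late IL-10 and 10160 to 19143 with continuous IL-10. Limma called 0 of 4 B cell markers, with 0 at an unadjusted p under 0.05 and 0 by edgeR and DESeq2, and 0 of 3 erythroid or mast cell markers, with 1 lower at an unadjusted p under 0.05 and by DESeq2 and 0 by edgeR. B cell markers summed to between 2097 and 3127 with late IL-10 and between 1844 and 2659 with continuous IL-10, and erythroid and mast cell markers to between 158 and 278 with late IL-10 and between 202 and 283 with continuous IL-10. All of these libraries came from IL10-/-RAG2-/- animals, and the part of these cell types in the differences above was not tested.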

How the data were processed

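H3K27ac was measured in 12 libraries, and the input library was not used here. The submitters' processing notes name mm10, DiffBind, MACS2, Bowtie2 and Trim Galore, without saying which step each served or in which version. The authors deposited a signal per library for each consensus region. Within a tolerance of 0.0001 reads, 100% of a library's values were multiples of its lowest value, so the signal is whole reads times 1 factor per library, with a floor of 1 read. Libraries held between 5149730 and 26922552 reads in regions, which limits the precision in weak regions, and PCR duplicates mean that reads are not independent molecules. No source states whether background was subtracted.

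Regions were placed on protein-coding genes of a RefSeq table (GRCm38.p6), by overlap or else the nearest within 100 kb. Gene values are sums over regions, and genes that share a region are not independent. Of 40691 regions, 27539 overlapped a gene, 10311 took the nearest and 2841 had none. RefSeq promoters matched 21 of the 28 named genes eligible for printing, and the 6 printed had the largest region differences of the 13 that lay inside a called region off chromosome 18.

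As these are no raw counts, the test was limma 3.58.1 (R 4.3.3, trend, robust), run on log2(value + 1) of all 12 libraries, with group and replicate number as terms, for features above the 10th percentile of mean log2 value. Calls are Benjamini-Hochberg adjusted p under 0.05 over all features, two-sided, and every adjusted p is from limma unless another tool is named. Fold changes on this scale understate weak regions. Intervals are 95%. A group at 3 reads or fewer per region and library gives a lower bound against 3 reads. With 3 libraries a group, exact permutation that ignores the pools could reach no p under 0.1, and permutation was not used.

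The series text names 3 independent macrophage pools, so the replicate numbers were used as a block. The deviations of late and continuous libraries with the same number correlated at 0.258, 0.149 and 0.571. Those with different numbers correlated between -0.481 and 0.370. The highest of these, late library 2 with continuous library 1, lay above the same-number values of pools 1 and 2. These values alone thus do not show the pairing of pools 1 and 2. Alternatives were no block, the 6 libraries alone, median centring, pseudocount 10, other filters, no trend, edgeR 4.0.16 (TMM) and DESeq2 1.42.0 on the recovered whole reads, and leaving out libraries; leaving out a pool, or the third LPS and untreated libraries, was added after seeing the data. The procedures were tested on simulated data.

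The comparison and the 18 gene lists were chosen with earlier results of these data known. Genes named are 20 fixed ones, the 3 largest calls per list and direction, the 5 largest calls overall per direction that agreed in 3 pools at or above the median level, and the macrophage markers. Regions named are the 6 largest such calls and the 4 strongest calls per direction, and the 3 longest runs. A few genes and regions that this choice names are not reported here.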

Additional observations from a re-analysis of the deposited data

How the results depend on the processing

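Depth limits the weak regions, with medians of 18 to 35 reads per region in the 6 libraries. A pool cannot be told apart from the preparation of its libraries. Over 19 alternatives, 111 named genes and regions gave 2098 values, of which 1658 kept direction and side of the threshold, 416 lost the call, 11 gained one and 13 changed sign. Without the replicate block, 680 regions were higher and 312 lower, 254 genes were higher and 90 lower, and 66 of the 111 named items lost their call. With no trend the counts were 1903 and 1050 regions and 839 and 576 genes. DESeq2 called 4504 regions and 1963 genes higher, and the 6 libraries alone gave 1087 lower regions. Leaving out single libraries gave 1302 to 2957 higher and 619 to 1724 lower regions, and 546 to 1351 higher and 310.0 to 998 lower genes. Leaving out pool 1 gave 666 higher and 219 lower regions and 576 higher and 378 lower genes. Leaving out pool 2 gave 153 and 51 regions and 300.0 and 147 genes, and leaving out pool 3 gave 3302 and 1490.0 regions and 1940.0 and 1193 genes. Fewer libraries enter these fits, and the cause of the other changes was not tested. Median centring moved the median difference of all regions from -0.02 to -0.13 and that of all genes from -0.12 to -0.05.

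The percent of regions higher with late IL-10 that LPS raised (60.8%) was 54.0% without the block, 67.1% with 6 libraries, 65.4% with centring, 59.0% with pseudocount 10, 63.5% with no trend, 67.4% with edgeR, 66.2% with DESeq2 and 64.5% without the third LPS and untreated libraries. It was 57.9% to 64.7% without single libraries and 62.0% to 66.6% without pools, with 64.1% without pool 2. The percent of regions lower with late IL-10 that LPS lowered (57.3%) was 59.7% with 6 libraries, 46.1% with centring and 51.8% without the third LPS and untreated libraries. It was 55.8% to 68.0% without single libraries and 55.3% to 72.5% without pools, with 61.6% without pool 1.

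The 13 sign changes were at 4 genes near 0 that were not called. Tnf was at -0.01 without pool 1. Nfkbia was at -0.02 without pool 2 and between -0.01 and 0.32 without single libraries. Actb was at 0.02 with centring, 0.03 with edgeR, 0.06 with DESeq2 and between -0.14 and 0.08 without single libraries. Spi1 was at 0.01 with edgeR, 0.03 with DESeq2, 0.02 without pool 1 and between -0.17 and 0.10 without single libraries.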
